A study of Mus musculus with 12 samples.

Results

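The 10 genes described here encode heat shock chaperones and the co-chaperones that work with them: Hspa1a, Hspa1b, Hspa8, Dnajb1, Hsp90aa1, Hsp90ab1, Stip1, Chordc1, Hsph1 and Bag3. They were chosen by name, with earlier results of these data known. Each is the entry of the deposited gene table whose Ensembl gene identifier belongs to that symbol. All 10 were found among the 38594 Ensembl genes of the table, and all 10 were among the 25809 genes that passed the filter on low counts. The tissue was the dorsal root ganglion, where the cell bodies of sensory neurons lie next to the spinal cord, taken at lumbar levels from naive male C57BL/6J mice aged 6 to 12 weeks. Ganglia were collected at zeitgeber time (ZT, hours after lights on) 2, 8, 14 or 20, with 3 total RNA libraries at each time and 12 in all. The 4 groups share strain, sex, age range and tissue. In the labels they differ by time of collection and by library number, which runs in the order of the times. The labels name no transgene, injury or drug. Whether the 3 libraries of a time are 3 animals is not stated in the labels; p-values therefore reflect the spread among libraries only, and that spread can be technical in part.

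Heat shock chaperones bind unfolded protein and let it refold, using cycles of ATP hydrolysis in the HSP70 and HSP90 families. J-domain proteins bring clients to HSP70 and start its ATPase, nucleotide exchange factors release the client, and adaptor proteins pass it on to HSP90. Heat shock factor 1 (HSF1) induces many of these genes when unfolded protein or body temperature rises, by binding repeats of GAA and its complement TTC, and some of them follow the daily rhythm of body temperature in other tissues.

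The promoters are shown first, because HSF1 binds the heat shock element and its letters were found in several of these genes. The RefSeq promoter table (GRCm38.p6, 250 bases before to 50 after each annotated start) held 7 of the 10 genes in 9 windows. On either strand, 2 facing units (GAANNTTC or TTCNNGAA) were present in 5 of these 7 genes (Hspa1a, Hspa1b, Hsph1, Chordc1 and Bag3), against 17% of the 27025 genes in the table and 15.1% of its 32851 windows. A run of 3 facing units with the same 2-base gaps, which contains the 2-unit letters, was present in Hsph1 and Chordc1, against 0.662% of all genes. The E-box CACGTG, the letters bound by the core clock activators, was found in Hsph1 among these genes and in 8.09% of all genes. The cAMP response element TGACGTCA was in none of the 7 and in 2.03% of all genes. The windows of Dnajb1 and Stip1 held none of these letters, which says nothing of the factors themselves. The elements of Hspa1a, Hspa1b and Hsph1 and the longest run of Chordc1 are printed below, 5′ to 3′ on the gene's own strand, with the heat shock element letters in capitals and positions counted from the RefSeq start base as 0.
Hspa1a, chr17:34972157-34972276, minus strand, positions -120 to -1: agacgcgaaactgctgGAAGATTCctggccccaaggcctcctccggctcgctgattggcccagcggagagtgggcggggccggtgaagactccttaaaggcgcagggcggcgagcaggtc
Hspa1b, chr17:34959239-34959358, minus strand, positions -120 to -1: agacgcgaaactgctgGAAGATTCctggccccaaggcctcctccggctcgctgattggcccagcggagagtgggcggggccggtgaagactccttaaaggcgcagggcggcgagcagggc
Hsph1, chr5:149636352-149636379, minus strand, positions -43 to -16: ggtagaatctTTCTCGAAggctcgagaa
Hsph1, chr5:149636287-149636310, minus strand, positions 26 to 49: atgctgcagaTTCTGGAAAGTTCt
Chordc1, chr9:18292256-18292285, plus strand, positions -11 to 18: gcaaccgGAACGTTCGGGAAAATTCCTGAA
The Hspa1a and Hspa1b stretches matched at 119 of 120 bases, and the full windows at 296 of 300. Their element lay at the same place, from -104 to -97. In Chordc1 the units ran on without a break from -4 to 18, across the annotated start. In Hsph1 a 2-unit element lay before the start and a 3-unit element after it. Bag3 had a single 2-unit element at 42 to 49 and Chordc1 a further one at 33 to 40, which are not printed. A match of letters is a description and not a measured binding site.

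**Figure D1:**
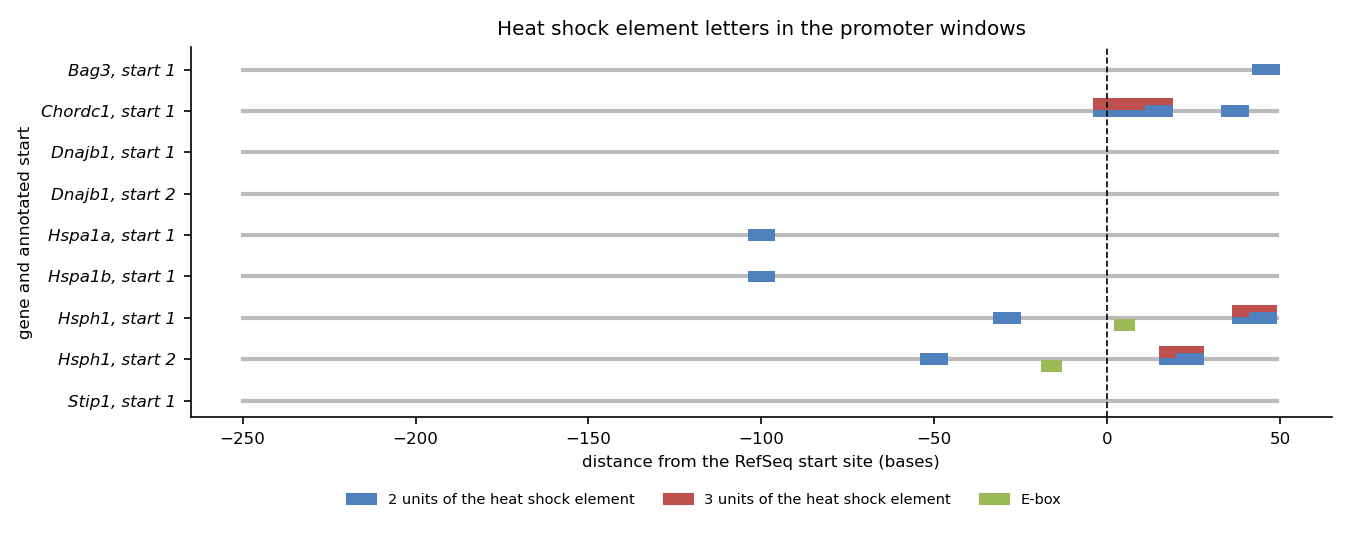
Positions of the searched letters in the 9 RefSeq promoter windows of 7 genes, in bases from the annotated start (dashed line); grey lines are the windows, and coloured boxes are 2 or 3 units of the heat shock element or the E-box. Hspa1a and Hspa1b have their element at the same distance before the start, Chordc1 and Hsph1 have runs of 3 units at or just after it, and Dnajb1 and Stip1 have none.

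Library totals ran from 89823256 to 125009877 deposited counts. In every library a low value multiplied by the length of its transcript, in units of the most frequent low value, most often gave 300 bases, taken here as 1 read pair. The values are thus proportional to coverage, and the totals amount to about 23968433 to 33531874 read pairs. Levels below are CPM, counts scaled to a normalised library size of 1000000. They are per-length values that can be set against each other between genes. All 12 sensory neuron markers were present, at 20744 to 22086 CPM in sum, and all 7 clock genes chosen to check the time labels differed between the times in edgeR (adjusted p under 0.05). Library numbers in the labels run in the order of the times, so an effect of collection or preparation order and an effect of time cannot be told apart. In whole ganglia, fewer cells of a type and less RNA per cell cannot be told apart either.

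The constitutive Hspa8 and Hsp90ab1, and the HSP90 gene Hsp90aa1, were among the most abundant transcripts of the ganglion, and the stress-inducible HSP70 genes were the least abundant of the 10. Hspa8 averaged 3538 CPM over the 12 libraries and ranked 20th of the 25809 tested genes, Hsp90ab1 averaged 2918 CPM (rank 26) and Hsp90aa1 1375 CPM (rank 67). Next came Bag3 at 413.5 CPM, Stip1 at 333.5 CPM and Hsph1 at 160.7 CPM. Dnajb1 averaged 62.9 CPM, Chordc1 32.3 CPM, Hspa1b 24.9 CPM and Hspa1a 14.0 CPM (rank 8321). The abundant genes varied little. The highest library exceeded the lowest by 1.08-fold for Hsp90ab1, 1.10-fold for Hspa8 and 1.12-fold for Bag3. It did so by 1.20-fold for Stip1, 1.21-fold for Hsp90aa1, 1.36-fold for Dnajb1 and 1.38-fold for Chordc1. The widest ranges were those of Hsph1 (1.44-fold), Hspa1b (1.47-fold) and Hspa1a (1.48-fold). The fewest read pairs on Hspa1a were about 690, a counting error of 3.81%, against a coefficient of variation of 13.9% over the 12 libraries. That error leaves out how reads were split between Hspa1a and Hspa1b, whose part in the range was not tested.

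**Figure D2:**
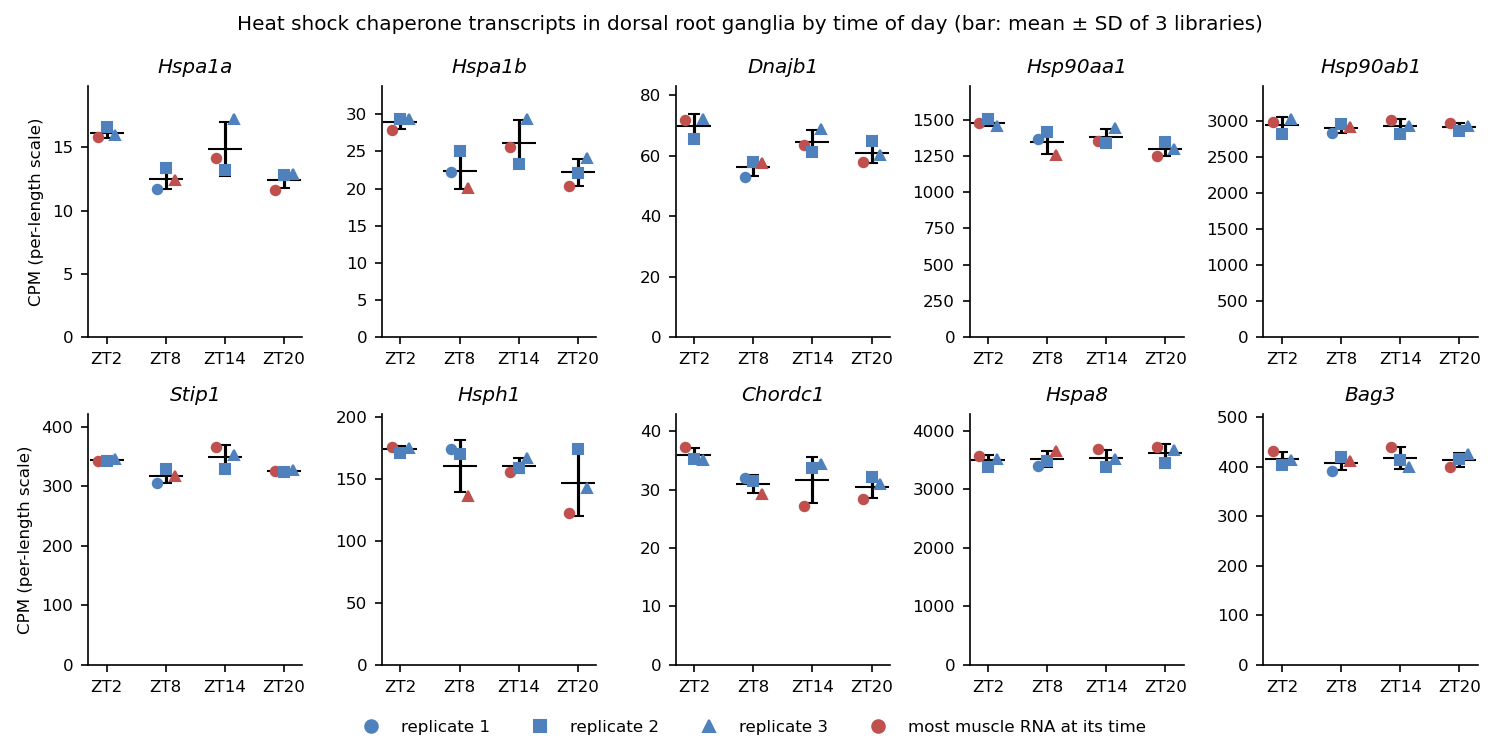
Level of each of the 10 genes in every library, in CPM on a linear axis from 0, by zeitgeber time; marker shapes are replicates, bars are the mean ± SD of 3 libraries, and red marks the library with the highest summed skeletal muscle markers at its time. Hspa1a, Hspa1b, Dnajb1, Hsp90aa1 and Chordc1 have their highest mean at ZT2, while Hsp90ab1, Hspa8 and Bag3 are nearly level across the times.

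The largest differences over the day were in the inducible HSP70 pair, which was highest at ZT2 and lower at ZT8 and ZT20. Hspa1a (ENSMUSG00000091971.3, chr17:34969190-34972156, GRCm38) encodes a cytosolic HSP70 that is normally made under stress. It stood at 15.8, 16.7 and 16.0 CPM in replicates 1 to 3 at ZT2, 11.7, 13.4 and 12.5 at ZT8, 14.1, 13.2 and 17.3 at ZT14, and 11.7, 12.8 and 12.9 at ZT20. All 3 ZT2 libraries were above every ZT8 and ZT20 library, and the ZT14 libraries were spread from the ZT8 level to the highest value of all. Its level was 24.3% higher at ZT2 and ZT14 than at ZT8 and ZT20, a log2 difference of 0.31 ± 0.06 (SE; 95% interval 0.17 to 0.46; edgeR's quasi-likelihood test, adjusted p = 0.301). From ZT20 to ZT2 the difference was 0.38 ± 0.09 on the log2 scale (edgeR adjusted p = 0.514).

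Hspa1b (ENSMUSG00000090877.3, chr17:34956436-34959238) is the neighbouring copy and encodes nearly the same protein. Its levels were 27.9, 29.4 and 29.4 CPM at ZT2, 22.2, 25.1 and 20.0 at ZT8, 25.7, 23.3 and 29.4 at ZT14, and 20.4, 22.1 and 24.1 at ZT20. The ZT2 libraries again lay above every ZT8 and ZT20 library, with replicate 3 of ZT14 level with them. The 12-h difference was 0.30 ± 0.07 (SE; 95% interval 0.15 to 0.45; edgeR adjusted p = 0.355). The copies are not independent measurements: 38.1% of the 150-base windows of the Hspa1a transcript occur without a mismatch in Hspa1b, and no source used here says how reads were split between them. Their summed counts gave a 12-h difference of 0.30 (edgeR adjusted p = 0.319). Over the 12 libraries the log2 levels of the copies had r = 0.94, a description of libraries that share those reads.

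Dnajb1 (ENSMUSG00000005483.10, chr8:83608193-83612653) encodes the J-domain partner that starts the ATPase of the inducible HSP70. It stood at 72.0, 65.4 and 72.2 CPM at ZT2, 53.0, 58.1 and 57.5 at ZT8, 63.4, 61.2 and 68.9 at ZT14, and 58.0, 64.9 and 60.2 at ZT20. The ZT8 libraries were the low ones: each was under every ZT2 and every ZT14 library, and 1 of them was within the ZT20 range. The log2 difference of ZT8 from ZT2 was -0.31 ± 0.06 (SE; edgeR adjusted p = 0.374). Its 12-h difference was 0.20 ± 0.04 (SE; 95% interval 0.10 to 0.29; edgeR adjusted p = 0.340). Dnajb1 and Hspa1a had r = 0.85 over the 12 libraries, and Hspa1b and Dnajb1 r = 0.77.

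Of the cytosolic HSP90 genes, the inducible form Hsp90aa1 was highest at ZT2 by a small margin, and the constitutive form Hsp90ab1 was nearly level. Hsp90aa1 (ENSMUSG00000021270.13, chr12:110690605-110702728) stood at 1477, 1505 and 1455 CPM at ZT2, 1368, 1416 and 1255 at ZT8, 1351, 1339 and 1442 at ZT14, and 1247, 1344 and 1295 at ZT20. All 3 ZT2 libraries were above all 9 others. The 12-h difference was 0.11 ± 0.04 (SE; 95% interval 0.03 to 0.19; edgeR adjusted p = 0.520), and ZT2 exceeded ZT20 by 0.19 ± 0.05 on the log2 scale (edgeR adjusted p = 0.562). Hsp90ab1 (ENSMUSG00000023944.14, chr17:45567775-45573271) kept group means between 2899 and 2939 CPM, with every library between 2810 and 3025 CPM. Its 12-h difference was 0.01 (95% interval -0.05 to 0.07; edgeR adjusted p = 0.972), and the groups overlapped at all times. The difference between these genes over the times was not tested.

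Of the HSP90 adaptors, Stip1 had a 12-h difference close to that of Hsp90aa1, and Chordc1 had a slightly larger one. Stip1 (ENSMUSG00000024966.9, chr19:7020702-7039967), also called Hop, holds HSP70 and HSP90 together while the client is passed on. Its levels were 342, 342 and 345 CPM at ZT2, 305, 329 and 317 at ZT8, 366, 328 and 352 at ZT14, and 326, 323 and 327 at ZT20. ZT2 lay above ZT8 and ZT20 with no overlap, and ZT14 held the highest library but spread down to the ZT20 level. The 12-h difference was 0.11 ± 0.03 (SE; 95% interval 0.04 to 0.17; edgeR adjusted p = 0.462). Chordc1 (ENSMUSG00000001774.8, chr9:18292125-18317442), a zinc-binding HSP90 co-chaperone, stood at 37.4, 35.3 and 35.1 CPM at ZT2, 32.1, 31.5 and 29.2 at ZT8, 27.1, 33.6 and 34.3 at ZT14, and 28.3, 32.1 and 31.0 at ZT20. Its 3 ZT2 libraries were above all 9 others, and its lowest library was replicate 1 of ZT14. The 12-h difference was 0.14 ± 0.06 (SE; 95% interval 0.01 to 0.27; edgeR adjusted p = 0.649), and ZT2 exceeded ZT20 by 0.24 ± 0.08 on the log2 scale (edgeR adjusted p = 0.682).

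The nucleotide exchange factors and the constitutive HSP70 had an unadjusted p above 0.05 in all 10 tests of edgeR. In DESeq2, Hsph1 was under 0.05 before adjustment in ZT2 against ZT20 (adjusted p = 0.592). Hsph1 (ENSMUSG00000029657.15, chr5:149614287-149636376), the HSP110 exchange factor, stood at 177, 171 and 176 CPM at ZT2, 175, 171 and 137 at ZT8, 156, 159 and 168 at ZT14, and 123, 174 and 143 at ZT20. Its ZT2 libraries were tight, while ZT8 and ZT20 each held libraries both at the ZT2 level and far under it. The 12-h difference of 0.13 ± 0.08 (SE; 95% interval -0.05 to 0.30) had an edgeR adjusted p of 0.786. Bag3 (ENSMUSG00000030847.8, chr7:128523616-128546981), an exchange factor that steers HSP70 clients to autophagy, had group means from 407.7 to 417.3 CPM. Its 12-h difference was 0.02 (95% interval -0.05 to 0.10; edgeR adjusted p = 0.933). Hspa8 (ENSMUSG00000015656.17, chr9:40800984-40810087), the constitutive HSP70, had group means from 3492 to 3615 CPM and was the only one of the 10 whose ZT2 mean was its lowest. Its 12-h difference was -0.02 (95% interval -0.09 to 0.05; edgeR adjusted p = 0.936). Hspa8 ran opposite to Hsph1 across the 12 libraries (r = -0.76) and to Chordc1 (r = -0.64), where the points share library and scaling.

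**Figure D3:**
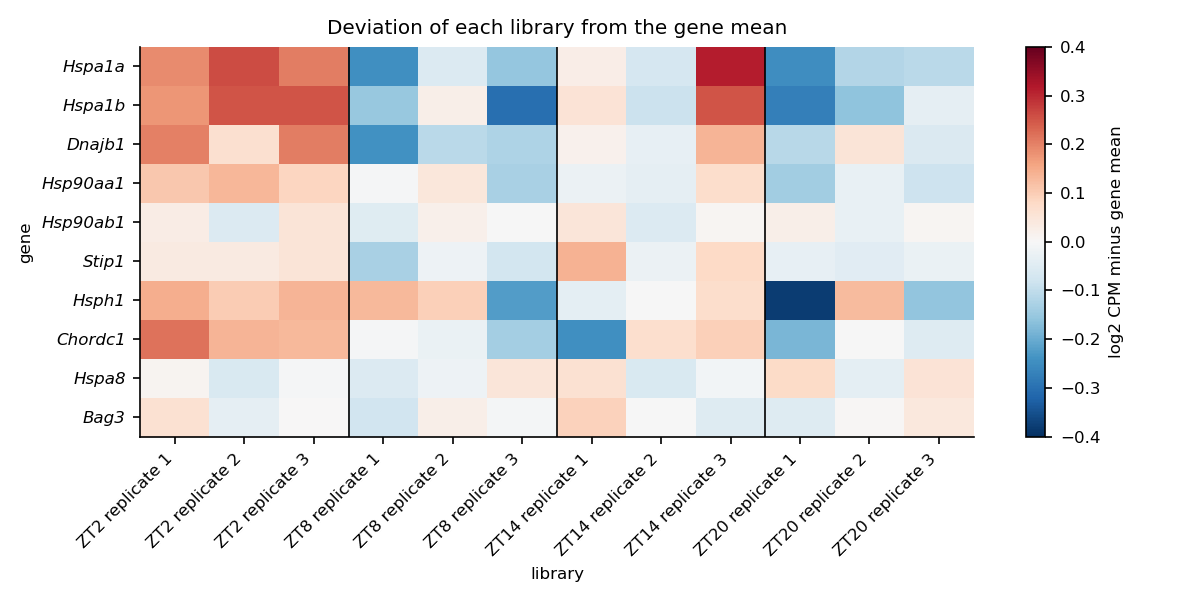
Log2 CPM of each gene in each library minus the mean of that gene over the 12 libraries (red, above; blue, under); vertical lines part the 4 times. The ZT2 columns are red for 7 genes from Hspa1a to Chordc1 other than Hsp90ab1, and so is replicate 3 of ZT14; replicate 1 of ZT14 is above the mean for Hspa1a, Hspa1b, Dnajb1 and Stip1 and under it for Hsp90aa1, Hsph1 and Chordc1.

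Across the set, 6 genes (Hspa1a, Hspa1b, Dnajb1, Hsp90aa1, Stip1 and Chordc1) had all 3 ZT2 libraries above all 3 ZT8 libraries, which held for 5.56% of all tested genes. The same 6 genes had ZT2 above ZT20 without overlap, which held for 7.18% of all tested genes. Both comparisons use the same ZT2 libraries. The 10 genes were chosen with earlier results of these data known, and Hspa1a and Hspa1b are not independent measurements. The shares over all tested genes are therefore given as a description. In 9 of the 10 genes, all but Hspa8, the ZT2 and ZT14 means were both above the ZT8 and ZT20 means. This held for 17.8% of all tested genes. Some margins were near 0: for ZT14 against ZT8 the log2 difference was 0.001 for Hsph1 and 0.01 for Hsp90ab1. It was 0.03 for Hsp90aa1, Chordc1 and Bag3, and 0.14 to 0.25 for Stip1, Dnajb1, Hspa1b and Hspa1a. Hsp90ab1 had -0.0008 for ZT20 against ZT14. For ZT8 against ZT2, Hsp90aa1 had -0.14 and Chordc1 -0.22. In 0 of the 10 were all 6 libraries of ZT2 and ZT14 above all 6 of ZT8 and ZT20 (0.163% of all tested genes). The median 12-h log2 difference of the 10 genes was 0.12, against -0.001 over all tested genes. By library, 10 of the 10 genes were above their own mean in replicate 1 of ZT2, 9 in replicate 3, and 7 in replicate 2. At ZT14 the numbers were 7, 1 and 8 in replicates 1 to 3, at ZT8 they were 1, 5 and 1, and at ZT20 they were 2, 3 and 3. ZT14 replicate 2 and ZT8 replicate 2 thus stood apart from the other libraries of their times.

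None of the 10 genes passed an adjusted p of 0.05 in edgeR in any of 10 tests, and few genes did in all. The share of tested genes past that threshold was 0.0504% for any difference between the times, 0.0659% for a 24-h cosine, 0% for the 12-h alternation and 0% for ZT14 and ZT20 against ZT2 and ZT8. It was 0.0465% for ZT14 against ZT2, 0.0232% for ZT20 against ZT8, 0.0194% for ZT8 against ZT2, 0% for ZT14 against ZT8, 0.0426% for ZT20 against ZT14 and 0.00387% for ZT2 against ZT20. At an unadjusted p under 0.05 in edgeR, 6 of the 10 passed the 12-h alternation (7.44% of all tested genes), 5 passed any difference between the times (6.19%) and 0 passed the 24-h cosine (5.2%). The 24-h amplitudes ran from 0.007 for Hsp90ab1 to 0.09 for Chordc1 on the log2 scale. Some of them changed strongly with a single library. Chordc1 had 0.04 without ZT14 replicate 1, and Hsp90ab1 had 0.02 without ZT2 replicate 2. Hspa1a, at 0.06, had 0.02 without ZT14 replicate 2 and 0.12 without ZT14 replicate 3. Others changed less: with each library left out in turn, Dnajb1 ran from 0.07 to 0.10 and Hsp90aa1 from 0.05 to 0.08. With all 12 libraries, the lowest adjusted p of the 24-h test was 0.982 (edgeR).

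DESeq2 on the same counts did call some of the genes. It put Hspa1a (adjusted p = 0.00834), Hspa1b (0.0224) and Dnajb1 (0.0135) past the threshold in the 12-h alternation, where it called 0.489% of all genes it tested. Over all alternatives, fits with a library left out included, the adjusted p of that test ran from 0.00834 to 0.58 for Hspa1a. It ran from 0.0224 to 0.649 for Hspa1b and from 0.0135 to 0.694 for Dnajb1. DESeq2 gave the lowest each time, and the highest of Hspa1a and Dnajb1 came from edgeR without ZT2 replicate 1. The same 3 genes passed any difference between the times in DESeq2 (1.17% of all genes), and Dnajb1 passed ZT8 against ZT2 (0.34%). The 12-h differences in DESeq2 were 0.31, 0.30 and 0.20, as in edgeR, so these calls rest on the choice of test and not on the size of the difference.

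**Figure D4:**
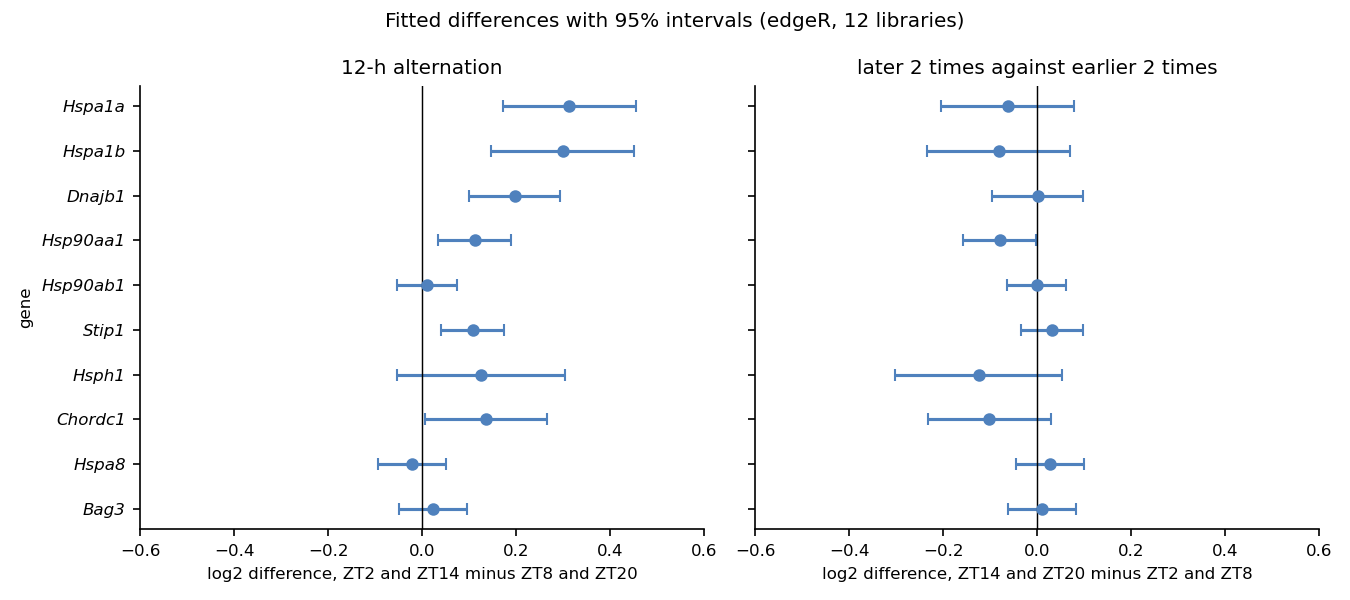
Fitted log2 differences of the 10 genes with 95% intervals (edgeR, 12 libraries): left, ZT2 and ZT14 minus ZT8 and ZT20; right, ZT14 and ZT20 minus ZT2 and ZT8. On the left 6 intervals lie above 0, with Hspa1a at 0.31 and Hspa1b at 0.30; on the right only the interval of Hsp90aa1 leaves out 0, at -0.08.

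Skeletal muscle RNA, from the tissue that borders the ganglia, differed between libraries of the same time. All 11 muscle markers were detected. Their summed level ran from 222 to 506 CPM at ZT2, 238 to 542 at ZT8, 291 to 586 at ZT14 and 188 to 1079 at ZT20. The list includes Pvalb, which some sensory neurons also express, so the sum need not be muscle alone. The libraries in which Hsph1 was lowest, replicate 1 of ZT20, replicate 3 of ZT8 and replicate 3 of ZT20, include the muscle-richest libraries of ZT20 and ZT8. At ZT2 it was otherwise: replicate 1, with 506 CPM of muscle markers, had the highest Hsph1 of all 12 libraries, and ZT20 replicate 3 was low in Hsph1 with 298 CPM of muscle markers. Without the muscle-richest library of each time the 12-h difference of Hsph1 was 0.02 in place of 0.13. The others changed less: Hspa1a stayed at 0.31, Hspa1b was at 0.25, Dnajb1 at 0.18, Hsp90aa1 at 0.08, Stip1 at 0.09 and Chordc1 at 0.13. The libraries left out also had the highest summed adipocyte markers of their times. These were 8.37, 12.3, 23.4 and 13.4 CPM at ZT2, ZT8, ZT14 and ZT20. The part of muscle alone was not tested. Blood markers also differed by time. The 6 erythroid markers, all detected, summed to 1314 to 3002 CPM at ZT2, 1719 to 1804 at ZT8, 2866 to 3193 at ZT14 and 580 to 951 at ZT20, so ZT14 lay above ZT8 and both above ZT20 with no overlap, while ZT2 overlapped both ZT8 and ZT14. The 7 neutrophil and marrow markers, all detected, summed to 60.0 to 139 CPM at ZT2, 63.2 to 83.9 at ZT8, 68.2 to 102 at ZT14 and 23.6 to 41.3 at ZT20. The part of these blood and marrow markers in the levels of the 10 genes was not tested.

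In the rest of the chaperone network the 12-h differences lay on both sides of 0. In 8 further lists (heat shock factors, other HSP70 proteins and exchange factors, J-domain proteins, HSP90 co-chaperones, small heat shock proteins, mitochondrial chaperones, the TRiC chaperonin and further HSF1 targets) 77 of 77 genes were tested and 0 passed an adjusted p of 0.05 in edgeR in any of the 10 tests. Of the 77, 46 had a 12-h difference above 0, against 49.6% of all tested genes, and the median was 0.02. At an unadjusted p under 0.05 in the 12-h test there were 14 of the 77, 10 of them above 0, against 7.44% of all tested genes. Hsf1 itself, named here after its values were seen, averaged 35.3 CPM with a 12-h difference of 0.02 (edgeR adjusted p = 0.970). Hsf4, a factor of lens and other tissues, had -0.20 (edgeR adjusted p = 0.580), and Hsf2 had -0.04 (0.845).

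Among HSP90 co-chaperones the lowest p for any difference was that of Ppid, a cyclophilin, at 75.8 ± 3.0, 66.8 ± 5.2, 73.6 ± 6.6 and 65.5 ± 2.0 CPM at ZT2, ZT8, ZT14 and ZT20 (SD, n = 3), a 12-h difference of 0.18 (edgeR adjusted p = 0.462). The phosphatase Ppp5c went the other way at -0.07 (0.688), and the immunophilin Fkbp5 had 0.04 (0.939). Of the J-domain proteins, Dnajc8 had -0.14 (0.539) and Dnajc7 -0.04 (0.699). Among the HSF1 targets Serpinh1, the collagen chaperone HSP47, had 98.0 ± 4.9, 62.8 ± 12.4, 77.9 ± 7.4 and 76.6 ± 5.4 CPM (SD, n = 3; 12-h difference 0.33, edgeR adjusted p = 0.410), and Dedd2 had 0.14 (0.539). The mitochondrial chaperonin pair Hspd1 and Hspe1 had 12-h differences of 0.09 and 0.09 (edgeR adjusted p = 0.580 and 0.604). Grpel2, a nucleotide exchange factor of the mitochondrial HSP70, had 0.52 (0.636). Of the small heat shock proteins, Hspb1 had 0.05, Cryab, the alpha-B crystallin, 0.05 and Hspb8, the partner of Bag3, -0.07 (edgeR adjusted p = 0.776, 0.897 and 0.608). Hspb8 was the single one of its list with an unadjusted 12-h p under 0.05.

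**Figure D5:**
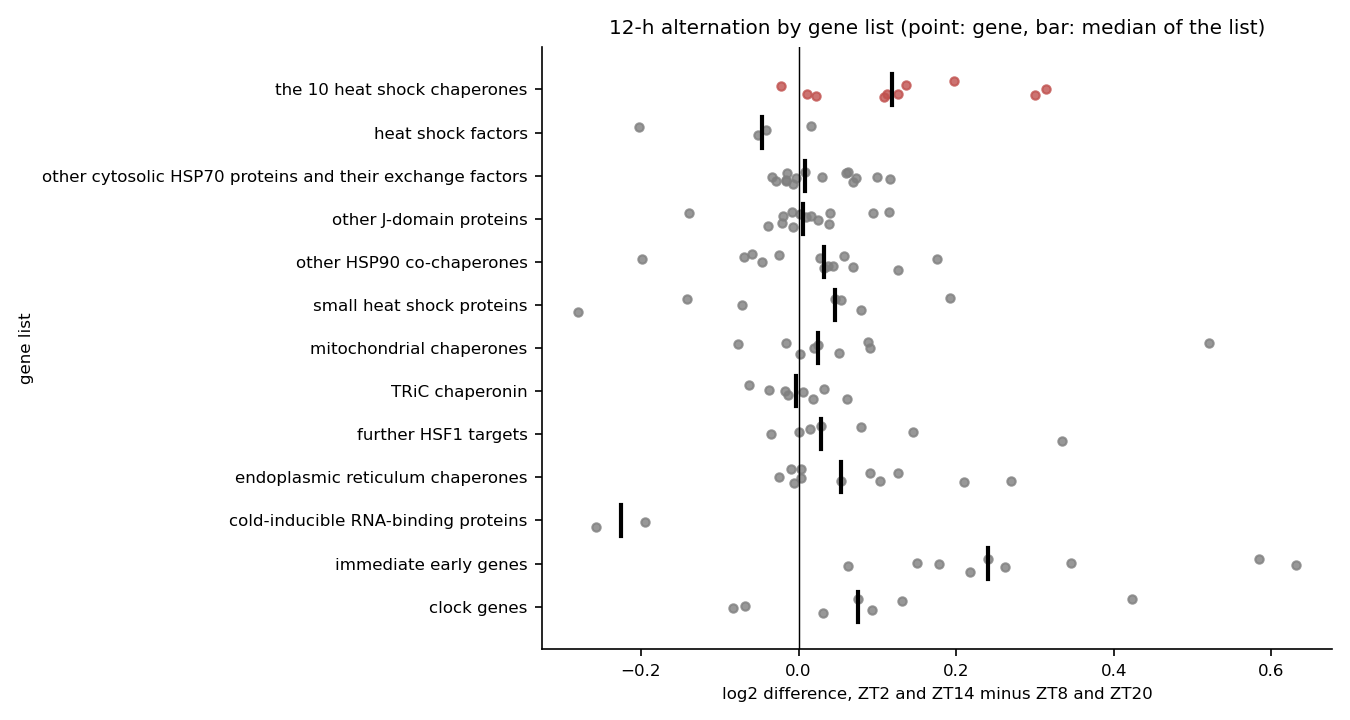
The 12-h log2 difference (ZT2 and ZT14 minus ZT8 and ZT20) of every tested gene by list; points are genes and bars are list medians. The 10 heat shock chaperones (red) have a median of 0.12, the chaperone lists under them have medians near 0, and the 9 immediate early genes all have a difference above 0.

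The 10 protein-coding genes most like the set, by Pearson r over the 12 libraries with the mean standardised log2 level of the 10 chaperones, were led by Kcnrg (r = 0.89, Spearman rho = 0.86) and Nfil3 (r = 0.86, rho = 0.83), a transcriptional repressor tied to the clock. They went on with Fam222a, Dock3, Taf15, Glrx2, Fkbp4, Rbm12b1, Zfp182 and Stambpl1 (r = 0.83 for the last). Kcnrg averaged 0.44 CPM, the lowest level of these 10 genes. Fkbp4, an HSP90 co-chaperone, was the single one of these 10 from the chaperone lists (r = 0.85, 12-h difference 0.06, edgeR adjusted p = 0.628). These are the highest of 16656 values of r from 12 libraries that share depth and scaling, and they are given as a description.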

How the data were processed

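Total RNA of 12 dorsal root ganglion libraries was sequenced. The submitters' processing notes name HISAT2 2.2.1, StringTie 2.1.5 and GRCm38.p6; how counts were made from them was not stated. The table holds estimated counts per gene as the authors deposited them, not normalised between libraries and proportional to coverage. Of its entries 348 are assembled loci with no Ensembl gene (0.203% to 0.231% of a library) and were left out; 38462 of 38594 identifiers matched GENCODE symbols. Counts were rounded. edgeR 4.0.16 (R 4.3.3) was fitted to all 12 libraries with TMM scaling, filterByExpr and a robust quasi-likelihood fit of 4 time means; p-values were adjusted by Benjamini-Hochberg over 25809 genes, threshold 0.05. The 12-h alternation is the mean of ZT2 and ZT14 minus that of ZT8 and ZT20 on the log2 scale. Promoters came from a RefSeq table. Tests were checked on simulated data. Named genes were the 10 members, the 3 of each list with the lowest p for any difference, clock genes as a label check, and the 10 genes of most like pattern; 1 gene that the rule names is not reported here. The members and lists were chosen with earlier results of these data known. Alternatives were DESeq2 1.42.0, limma 3.58.1 (trend), DESeq2 size factors, other filters, approximate read pairs, summed HSP70 copies, a replicate block, leaving out each library, and leaving out muscle-rich libraries. Library totals are given with the levels; counting errors cover counting alone.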

Additional observations from a re-analysis of the deposited data

How the results depend on the processing

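edgeR called 0 of the 10 genes in each of 10 tests in every alternative fit, and limma-trend also called 0. DESeq2 called 3 in any difference between the times, 3 in the 12-h alternation and 1 in ZT8 against ZT2. Leaving out each library in turn left the count of the 10 genes called at 0. The number of the 10 with an unadjusted p under 0.05 in the 12-h test ran from 5 to 7 where each gene was tested on its own. The 12-h difference of Hspa1a ran from 0.26 to 0.36 and that of Dnajb1 from 0.18 to 0.23 when each library was left out in turn. Hsph1, at 0.13, had 0.07 without replicate 1 of ZT20, 0.07 without replicate 3 of ZT8 and 0.20 without replicate 2 of ZT20. Only near-zero values turned sign. Without the muscle-richest library of each time the 12-h difference was -4e-04 for Hsp90ab1 and -0.0218 for Bag3, and Bag3 had -0.0407 for ZT2 against ZT20. Without ZT2 replicate 3, Hsp90ab1 had -4e-04 in the 12-h test and -0.0102 for ZT2 against ZT20, and without ZT14 replicate 1 it had -8e-04 in the 12-h test. Bag3 had -0.0073 for ZT2 against ZT20 without ZT2 replicate 1 and -0.0133 without ZT20 replicate 1. With each library left out in turn, the highest values were 0.0311 for Hsp90ab1 in the 12-h test, 0.0505 for Hsp90ab1 in ZT2 against ZT20 and 0.0446 for Bag3 in ZT2 against ZT20. The cause was not tested. Same-numbered libraries of different times did not deviate together (median r = 0.013 over 18 pairs, against 0.006 over 36 pairs of other numbers). Of the 12 libraries, 3 correlated best with one of their own number. Such correlations cannot show whether libraries of the same number share a source or a day of preparation, which the labels do not state. With the replicate number as a block, 0 of the 10 genes were called, 5 had an unadjusted p under 0.05 in the 12-h test, and Hspa1a had an adjusted p of 0.461 (edgeR). Over all genes the count for any difference was 13, from 0 to 296 with other settings and 4 to 22 with a library left out. For the 12-h alternation it was 0, from 0 to 126 and 0 to 9. An alternative without muscle-rich libraries chosen by mean log2 marker level was added after seeing the data and called 0 of the 10.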

Other observations

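Other gene groups outside the chaperone network had 0 genes past an adjusted p of 0.05 in edgeR in the 12-h test and are given by their 12-h differences. Over all tested genes, 49.6% had a 12-h difference above 0 and 7.44% an unadjusted p under 0.05 in that test. Of 11 endoplasmic reticulum chaperones, 8 had a 12-h difference above 0, with a median of 0.05, and 4 had an unadjusted p under 0.05. Hspa5 (BiP), the HSP70 of that compartment, had 188 ± 6.1, 152 ± 14.4, 168 ± 11.6 and 155 ± 6.7 CPM at ZT2, ZT8, ZT14 and ZT20 (SD, n = 3; 12-h difference 0.21, edgeR adjusted p = 0.355). Hsp90b1, its HSP90 partner, was highest at ZT2 at 286 ± 5.2 CPM, against 256 to 266 CPM at the other times (edgeR adjusted p = 0.420 for any difference).

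All 9 immediate early genes, which neurons transcribe soon after they are activated, had a 12-h difference above 0 (49.6% of all tested genes), with a median of 0.24, and 5 of the 9 had an unadjusted p under 0.05 (7.44% of all tested genes). The difference pools the times: Egr2, named after its values were seen, had means of 13.6, 14.1, 13.5 and 10.6 CPM at ZT2, ZT8, ZT14 and ZT20, so that ZT2 and ZT14 were both under ZT8. Fos stood at 7.63 ± 0.97, 5.08 ± 0.69, 7.71 ± 1.95 and 4.83 ± 0.39 CPM at ZT2, ZT8, ZT14 and ZT20 (SD, n = 3; 12-h difference 0.63, edgeR adjusted p = 0.295). Dusp1, a phosphatase gene of the same class, had 33.8 ± 1.0, 32.7 ± 3.5, 38.1 ± 2.3 and 27.4 ± 1.8 CPM (12-h difference 0.26, edgeR adjusted p = 0.318). Of the cold-inducible RNA-binding protein genes, Cirbp had means of 34.6, 40.4, 31.9 and 39.0 CPM in the same order (12-h difference -0.26, edgeR adjusted p = 0.461). Rbm3 had 119.7, 142.3, 144.7 and 159.5 CPM (-0.19, edgeR adjusted p = 0.688), with ZT14 above ZT8, so its negative difference came from ZT2 and ZT20. How far any of these groups shares a source with the chaperones was not tested.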
